A study of Bos taurus with 8 samples.

Results

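The genes described here are the standard subunits of the proteasome and the enzymes that attach ubiquitin to proteins or take it off, as measured in granulocytes from the blood of cows. They were chosen by symbol: names that start with PSMA, PSMB, PSMC, PSMD or UBE2, or with USP and a number, without the immune subunits PSMB8, PSMB9 and PSMB10 and without UBE2C. The rule found 59 of the 6796 genes named on the array, measured by 62 of its 15208 probes. They were 7 PSMA, 5 PSMB, 6 PSMC, 11 PSMD, 19 UBE2 and 11 USP genes. Of the 59, 57 passed the filter on dim probes, which kept a probe if the scanner marked it well above background on 4 or more of the 8 arrays, in either group. PSMB1 and UBE2E3 did not pass. Of the 57 tested genes, 52 were well above background on all 8 arrays. PSMB7, the trypsin-like catalytic subunit, and UBE2L6, the E2 of ISG15, have no probe under those names.

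Samples were taken from 4 cows on day 7 of the oestrous cycle, when the cows were not pregnant and had not yet received an embryo, and from 4 on day 21, when they were pregnant after embryo transfer. By the source names, the 4 animals of day 7 are also the 4 of day 21. The labels give no breed or age for the cows. Each sample was hybridised to its own array with a single dye, Cy3. Every cow was sampled in the same order, so pregnancy, the transfer itself, the day of the cycle and calendar time cannot be told apart. No group of cows without a transfer is part of the design.

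The proteasome is the main protease of the cytosol and nucleus. Its barrel-shaped core is closed at both ends by rings of alpha subunits (PSMA genes) around inner rings of beta subunits (PSMB genes), a few of which cut proteins. A regulatory particle on the end of the barrel binds ubiquitin-tagged proteins through non-ATPase subunits (PSMD genes) and unfolds them with a ring of ATPases (PSMC genes). E2 enzymes (UBE2 genes) carry activated ubiquitin, or a relative of it, to the target, and ubiquitin-specific proteases (USP genes) remove it. Granulocytes are mostly short-lived neutrophils, and blood leukocytes are known to carry an immune form of the proteasome beside the standard one.

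Each value below comes from a 60-base probe, and the probes of the genes that the results turn on are shown by 30 of their 60 bases, 5′ to 3′ as the scanner tables list them. Capitals mark AATAAA, the hexamer that precedes the polyadenylation site of many messenger RNAs, where the stretch holds it. The 2 PSMD12 probes are shown because they gave different changes, and the others because their genes had the smallest unadjusted p values among the members.

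PSMD12, brighter probe (A_73_103947), bases 1 to 30: ctcatagccaaagaggagatgatacataat
PSMD12, dimmer probe (A_73_116649), bases 1 to 30: ttcagcttctggatatagctgcAATAAAag
USP9X (A_73_120789), bases 1 to 30: acccagatcacatacttctcagccttttac
UBE2A (ABR1948), bases 1 to 30: ttccattttaacatccatacagtctctact
PSMD3 (ABR7330), bases 1 to 30: ctgtcaaggccatgaggtttcctcccaaat
USP37 (ABR1802), bases 1 to 30: gaagcaggcatggtttacatataatgacct
USP11 (ABR5065), bases 1 to 30: gggtgcacctgaacagagtgtattttctta
UBE2J2 (A_73_104119), bases 1 to 30: gaggaggcctcacgctttggttttatagct
PSMA1 (A_73_105081), bases 1 to 30: ttcctaagctgccaccaaaaccatataatt

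The hexamer AATAAA, searched on the listed strand only, stood in 9 of the 62 member probes (14.5%) and in 1714 of the 15208 probes of the array (11.3%). This describes where in a transcript the probes tend to lie and is no site call. No pair among the 1891 pairs of member probes shared a run of 20 bases. Cross-hybridisation between near-identical relatives, such as the 4 UBE2D genes, was not tested.

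Values are on the log2 scale, as the scanner's processed signal relative to the 75th percentile over its own array, so 0 is the level of the upper quartile of that array's probes. Each probe has its own brightness per molecule, so levels are compared between arrays and never between genes. The 8 arrays had median signals of 49.1 to 187 intensity units, and 56.8% to 74.9% of probes were well above background. With 4 arrays in each group, the median standard error (SE) of a member's log2 change was 0.387. In such bulk samples fewer cells of a type and less RNA per cell cannot be told apart.

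The label "granulocytes" was compared with marker genes. Of 15 tested neutrophil markers 11 were well above background on all 8 arrays. Their day 7 means ran over the 15 from -5.93 for CAMP to 6.67 for S100A12. Markers of other blood cells were measured too. Of 8 monocyte and macrophage markers 7 were well above background on all 8 arrays, as were 6 of 7 NK cell markers. All 7 T cell and all 5 B and plasma cell markers were too. Day 7 means ran from -6.59 (C1QA) to 5.98 (FCN1) for monocytes and macrophages. They ran from -1.74 (LCK) to 1.75 (CD3E) for T cells and from -0.93 (MS4A1) to 3.93 (BLK) for B and plasma cells. Since each probe has its own brightness, these levels give no shares of cell types. The mean over 15 neutrophil markers lay between 0.30 and 0.84 on day 7. On day 21 it lay between 0.11 and 0.83 in cows 2 to 4 and at -1.95 in cow 1. The day 21 array of cow 1 thus stands apart on the markers that define the cell type, and the class medians below are given or plotted by cow.

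No member was called at an adjusted p under 0.05 (limma, Benjamini-Hochberg over all 10459 tested probes), and the same held for the 5029 tested genes as a whole (0.0% called). As a group, the members were more often higher than lower on day 21: 42 of 57 (73.7%) were higher, against 56.5% of all tested genes. Their median log2 change, day 21 minus day 7, was 0.30 (a fold of 1.23), against 0.09 for all tested genes. Within cows 1 to 4 the members' median was 0.41, 0.41, 0.25 and 0.27, and that of all tested genes was -0.08, 0.18, 0.07 and 0.08. The members' median was thus above that of all genes in each of the 4 cows. Over every setting tried it stayed between 0.22 and 0.33, with 38 of 57 (66.7%, without the day 7 array of cow 2) to 43 of 57 (75.4%, with the mean over a gene's probes) members higher. These are descriptions with no test, since the members were chosen with earlier results of these data known.

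At an unadjusted p under 0.05, 6 of the 57 members were higher on day 21 (10.5%, against 5.31% of all tested genes): PSMA1, PSMD3, UBE2A, UBE2J2, USP11 and USP37. USP37 was well above background on 2 of 4 day 7 arrays and 4 of 4 day 21 arrays. It thus passed the filter through the group where it is high, which also limits its place in the counts below. USP9X was the 1 member lower (1.75%, against 3.7%). With the cow as a block, 13 members were higher (22.8%, against 10.4% of all genes) and 3 were lower (5.26%, against 7.52%), with 0 called after adjustment and a smallest adjusted p of 0.158 among them. The 7 added to the higher group by the block were PSMA2, PSMA6, PSMA7, PSMB2, PSMB4, UBE2D3 and USP18, and those added to the lower group were PSMD6 and UBE2W. The unblocked count of 6 became 3 without cow 3, 1 without cow 4 and 11 without the day 21 array of cow 1. In these fits 3.10%, 1.73% and 9.27% of all tested genes were higher. Without cow 4 the members' share was thus 1.75%, level with that of all genes. The count of 1 lower became 3 without cow 1 or without its day 7 array, and 2 without the day 21 array of cow 1 or of cow 3. In the same order, 7.62%, 3.84%, 7.85% and 2.92% of all tested genes were lower.

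The direction was also counted within cows. On day 21, 18 of the 57 members were higher in 4 of 4 cows (31.6%, against 16.5% of all tested genes) and 5 were lower in 4 of 4 (8.77%, against 12.8%). Among the 18, USP15 and USP37 were each well above background on 2 of 4 day 7 arrays and 4 of 4 day 21 arrays. Both thus passed the filter through the group where they are high. The groups did not overlap, all day 21 values lying above all day 7 values, for PSMA1, PSMA6, PSMD3, UBE2A, USP11 and USP37 (10.5%, against 3.62%). USP9X was the only member of the 57 whose day 21 values all lay below its day 7 values (1.75%, against 2.29%). Of the other ways of processing, only the fit with array quality weights called members. It called PSMA1, PSMA6, PSMA7, PSMB4, PSMD3, UBE2A, USP18 and USP37 higher (14.0%, against 9.11% of all genes) and PSMD7 and USP9X lower (3.51%, against 7.08%). That fit gave the arrays of cow 4 weights of 3.27 and 7.02 and those of cow 1 weights of 0.293 and 0.295.

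**Figure D1:**
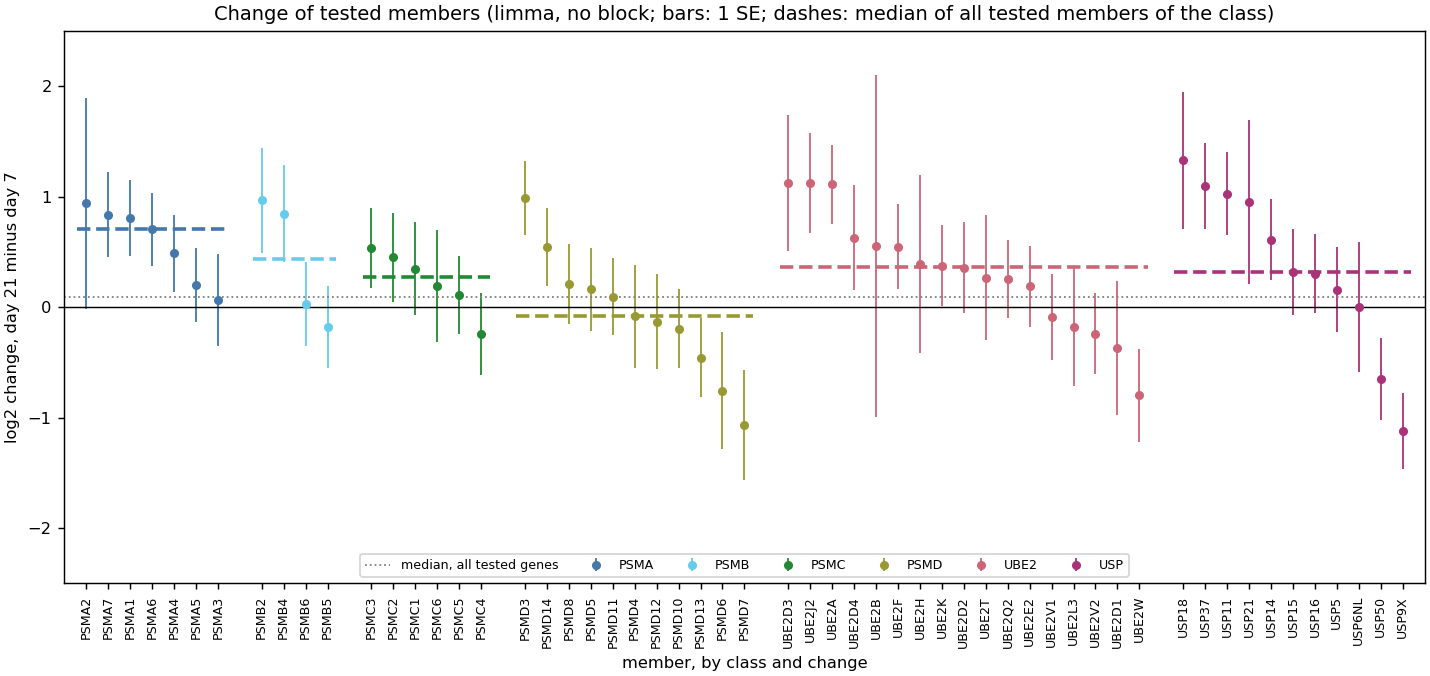
Log2 change (day 21 minus day 7, vertical axis) of 56 of the 57 tested members, grouped by class and sorted by change; points are estimates of the unblocked limma fit, bars are 1 SE, dashes are medians over all tested members of a class and the dotted line is the median of all tested genes at 0.09. All 7 PSMA points lie above 0, while PSMD genes run from 0.99 for PSMD3 to -1.06 for PSMD7.

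The alpha subunits of the core were the class with the highest median. All 7 PSMA genes had a higher mean on day 21, with a median log2 change of 0.70 (a fold of 1.63), and 5 of the 7 were higher in 4 of 4 cows. Cow by cow the class median was 0.70, 0.52, 0.68 and 0.77. With the first day 7 array left out, that of cow 1, which held the lowest value of 3 of the 7 genes, the median was 0.39. Within slide 1, which held cow 1 on both days and cow 2 on day 7, it was 0.45, and slides 3 and 4 each held 1 cow, with the values of cows 3 and 4 above.

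PSMA1, in the alpha ring, read 1.81, 2.67, 2.40 and 2.44 on day 7 in cows 1 to 4 and 2.78, 3.48, 3.07 and 3.21 on day 21. The groups did not overlap, and the cows kept their order, with cow 2 highest and cow 1 lowest on both days. The log2 change was 0.81 (SE 0.345, unadjusted p = 0.0404, limma adjusted p = 0.514). PSMA6 read 3.79, 4.29, 3.56 and 3.72 on day 7 and 4.49, 4.79, 4.33 and 4.56 on day 21 (values are in the order of cows 1 to 4 here and below). These groups did not overlap either, with the day 7 value of cow 2 just under the day 21 value of cow 3, and the change was 0.70 (SE 0.327, limma adjusted p = 0.546).

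PSMA7 read 0.42, 0.34, 0.65 and 0.69 on day 7 and 0.44, 1.64, 1.72 and 1.66 on day 21. Cow 1 was nearly level between the days, with a difference of 0.02, while the other cows differed by 0.96 to 1.30. PSMA2 spread most among cows, from -2.75 in cow 1 to 1.33 in cow 3 on day 7 and from -1.38 to 2.15 on day 21. Its change of 0.94 had an SE of 0.952 without the block and 0.262 with the cow as a block, since all 4 cows differed the same way, by 1.37, 0.50, 0.82 and 1.08. PSMA4 was higher in 4 of 4 cows by 0.22 to 0.79. PSMA5 (0.20, SE 0.335) and PSMA3 (0.07, SE 0.417) had the smallest changes of the class, and for PSMA3 cow 2 went against the other cows, at -1.03.

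Among the 4 tested beta subunits, PSMB2 and PSMB4, which hold no active site, were higher on day 21 in 4 of 4 cows. PSMB1, which holds none either, was not tested. It read -5.80, -6.08, -7.24 and -6.62 on day 7 and -5.45, -7.02, -7.39 and -7.02 on day 21, lower in 3 of 4 cows. PSMB2 read -0.35, 0.38, 1.12 and 0.81 on day 7 and 0.49, 2.36, 1.55 and 1.44 on day 21. PSMB4 read 3.04, 3.64, 4.26 and 3.71, then 3.50, 5.07, 4.73 and 4.74. For both genes the groups overlapped and cow 2 differed most, by 1.98 and 1.43. The log2 changes were 0.97 (SE 0.479, limma adjusted p = 0.578) for PSMB2 and 0.85 (SE 0.438, limma adjusted p = 0.595) for PSMB4.

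PSMB5, the chymotrypsin-like subunit, read 0.95, 0.53, 0.44 and 0.25 on day 7 and 0.95, -0.30, 0.35 and 0.46 on day 21. Its change of -0.18 (SE 0.371) changed sign in some settings, given in the closing section. PSMB6, the caspase-like subunit, differed by 0.42, -0.64, 0.20 and 0.15 in cows 1 to 4, with a change of 0.03 (SE 0.376) whose sign also depended on the setting. The median of the 4 tested PSMB genes was 0.44, and 0.03 when PSMB1, well above background on 2 arrays, was let in. The immune subunits, which replace catalytic PSMB subunits and are no members here, had changes of -0.60 (SE 0.490) for PSMB8, 0.12 (SE 0.351) for PSMB9 and -0.23 (SE 0.493) for PSMB10. The PSMB8 value was carried by cow 2, at -2.05, against 0.26, -0.18 and -0.45 in cows 1, 3 and 4, whose mean was -0.12 (a mean over fewer cows, chosen after seeing the data, as for NFE2L2 below).

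**Figure D2:**
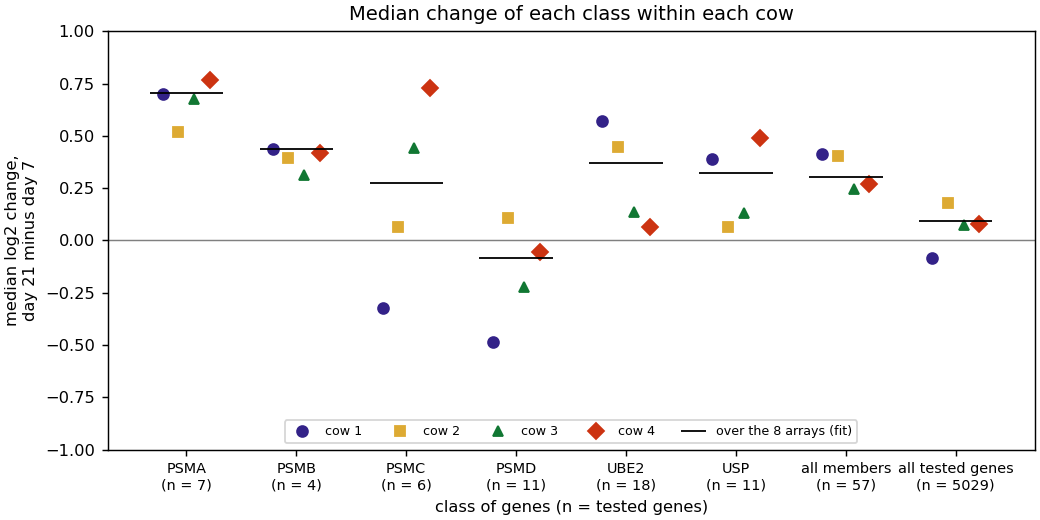
Median log2 change (day 21 minus day 7, vertical axis) over the tested genes of each class, within each of the 4 cows (symbols) and from the fit over the 8 arrays (black bars), beside all members and all tested genes. PSMA medians lie between 0.52 and 0.77 in the 4 cows, while PSMC runs from -0.32 in cow 1 to 0.73 in cow 4.

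The ATPases of the regulatory particle differed in direction between cows. The PSMC median was 0.27, with 5 of 6 genes having a higher mean, but it was -0.32, 0.06, 0.44 and 0.73 in cows 1 to 4. It was 0.08 without cow 4, 0.45 without the day 7 array of cow 1, 0.49 without both arrays of cow 1 and 0.63 with array quality weights. None of the 6 was higher in 4 of 4 cows, and none had an unadjusted p under 0.05. PSMC3, the highest of the class, read 1.28, 1.44, 1.43 and 0.85 on day 7 and 2.02, 1.18, 2.30 and 1.66 on day 21, so that 3 cows were higher and cow 2 was lower. Its change was 0.54 (SE 0.363, limma adjusted p = 0.666). PSMC4, the only PSMC gene with a lower mean on day 21, read 2.95, 2.24, 2.09 and 2.08, then 2.42, 2.48, 1.64 and 1.84.

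PSMC5 read 4.64 on day 7 in cow 1, against 3.67 to 3.75 in the other cows, and 3.84 to 4.33 on day 21. The day 7 array of cow 1 held the highest value of 3 of the 6 PSMC genes and of 3 of the 11 PSMD genes, and of none of the 11 tested core subunits. It held the lowest value of 5 of those 11 core subunits. Between core and regulatory particle, cow 1 therefore showed the widest gap: its median was 0.66 over the 11 PSMA and PSMB genes and -0.49 over the 17 PSMC and PSMD genes. The same medians were 0.52 and 0.11 in cow 2, 0.43 and 0.08 in cow 3, and 0.62 and 0.29 in cow 4. The core thus had the higher median in each cow. Whether the difference between core and regulatory particle exceeds the spread was not tested.

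The non-ATPase subunits pointed both ways. Of the 11 PSMD genes 5 had a higher and 6 a lower mean on day 21, the median was -0.08, and over the settings tried it ran from -0.18 to 0.17. Its sign turned with the mean over a gene's probes (0.10), where both PSMD12 probes enter, and with array quality weights (0.11). The sign also depended on which arrays or cows were left out. The median was 0.17 without the day 21 array of cow 3 and 0.15 without cow 1, but -0.18 without cow 2. PSMD3, a lid subunit, read -0.45, -0.14, -0.91 and -0.23 on day 7 and 0.69, 0.57, 0.27 and 0.71 on day 21. All 4 day 21 values lay above all day 7 values, and the cows differed by 0.70 to 1.18. The log2 change was 0.99, a fold of 1.99 (SE 0.332, unadjusted p = 0.0131, limma adjusted p = 0.465, and adjusted p = 0.158 with the cow as a block).

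PSMD14, the metalloprotease of the lid that cuts ubiquitin off arriving substrates, read 2.12, 2.12, 1.73 and 2.12 on day 7 and 2.41, 3.20, 2.11 and 2.57 on day 21. It was higher in 4 of 4 cows, with a change of 0.55 (SE 0.351, limma adjusted p = 0.654). PSMD7, the subunit that pairs with PSMD14 in the lid, went the other way in 3 cows. It read 0.62, 1.86, 1.98 and 1.80 on day 7 and 1.73, 0.41, -0.07 and -0.08 on day 21. Cows 2 to 4 differed by -1.45 to -2.05 and cow 1 by 1.11, so the change of -1.06 (SE 0.500, limma adjusted p = 0.550) averages animals that differed in direction.

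PSMD6, a lid subunit, was lower in 4 of 4 cows, reading -2.07, -1.33, -0.62 and -1.19 on day 7 and -2.94, -2.87, -1.01 and -1.41 on day 21. The groups overlapped, and the change was -0.76 (SE 0.530, limma adjusted p = 0.680). PSMD13, also of the lid, was lower in 4 of 4 cows by 0.11 to 0.82 in size, with a change of -0.46 (SE 0.359). The remaining PSMD genes had changes between -0.19 and 0.21. They were the ubiquitin receptor PSMD4, the assembly factors PSMD5 and PSMD10, and PSMD8, PSMD11 and PSMD12 of the lid.

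PSMD12 was measured by 2 tested probes that disagreed. The brighter probe, which stands for the gene in the counts here except where the mean over probes is named, read -0.85, -1.14, -0.53 and -1.49 on day 7 and -1.34, -2.04, -0.49 and -0.66 on day 21, a change of -0.13 (SE 0.428). The dimmer probe, the one with AATAAA in the stretch shown above, read -2.56, -2.37, -0.65 and -1.50, then -2.23, -0.42, 0.51 and -0.07, a change of 1.22 (SE 0.631). The dimmer probe was higher on day 21 in 4 of 4 cows and the brighter in 2. In cows 1 and 2 the probes went opposite ways. USP5, which takes apart free ubiquitin chains, also had 2 tested probes, and these gave changes of 0.16 (SE 0.389) and 0.36 (SE 0.486).

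**Figure D3:**
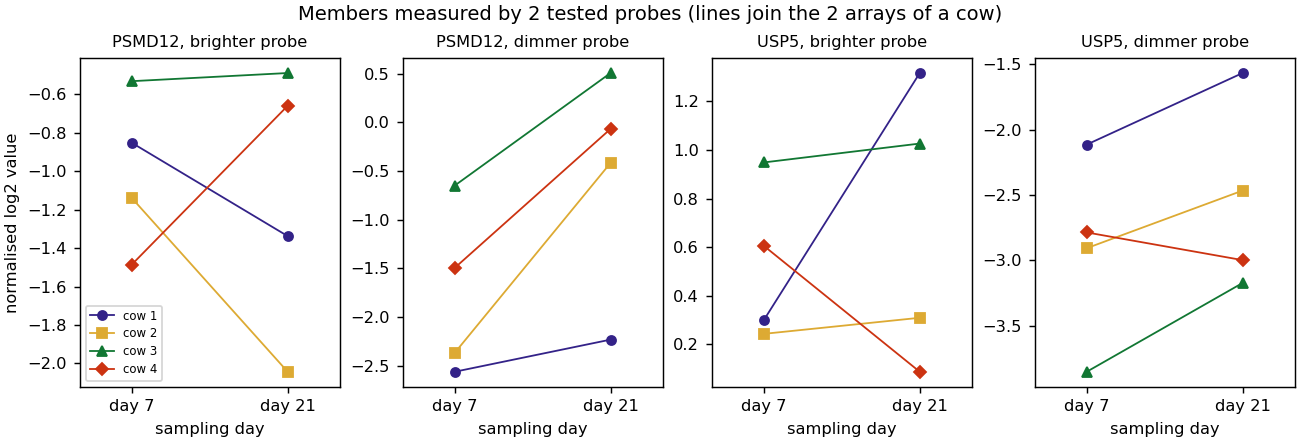
Normalised log2 value (vertical axis) on day 7 and day 21 for both tested probes of PSMD12 and of USP5, with lines joining the 2 arrays of a cow and each panel on its own scale. The lines of the dimmer PSMD12 probe go up in all 4 cows and those of the brighter probe in cows 3 and 4.

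Among the E2 enzymes 13 of 18 tested genes had a higher mean on day 21 and 5 a lower one, with a median of 0.37. The median was 0.57, 0.45, 0.14 and 0.06 in cows 1 to 4, and over the settings tried it ran from 0.09 with slide as a fixed block to 0.49 when the day 21 array of cow 1 was left out. Leaving out the day 7 array of cow 1 gave 0.15, the day 21 array of cow 2 gave 0.19, both arrays of cow 2 gave 0.24, and array quality weights gave 0.13. UBE2A, which with its ligases marks histones and the replication clamp PCNA, read 0.88, 1.06, 0.21 and 0.45 on day 7 and 1.40, 2.13, 1.50 and 2.03 on day 21. The groups did not overlap, and the log2 change was 1.12, a fold of 2.17 (SE 0.359, unadjusted p = 0.0105, limma adjusted p = 0.439). UBE2B, its near-identical relative, ran from -6.74 to -0.91 on day 7 and was well above background on 6 of 8 arrays. The SE of 1.55 exceeded its change of 0.56.

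UBE2J2, an E2 anchored in the membrane of the endoplasmic reticulum, read 2.00, 2.99, 2.36 and 3.24 on day 7 and 3.51, 4.70, 3.02 and 3.85 on day 21. The groups overlapped at cow 3 on day 21, but all 4 cows were higher, and the change was 1.12 (SE 0.453, unadjusted p = 0.0317, limma adjusted p = 0.502). UBE2D3, of the family that serves many RING ligases, read -1.05, 0.65, 0.60 and 1.30, then 0.07, 2.42, 1.50 and 2.02. Cow 1 was lowest on both days. The change of 1.13 had an SE of 0.618, and 0.278 with the cow as a block, where the unadjusted p was 0.00595 and the limma adjusted p 0.159.

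Its relatives did not follow it in every cow. UBE2D1 read -3.93, -1.43, -1.33 and -1.30 on day 7 and -1.56, -2.82, -2.61 and -2.48 on day 21. As for PSMD7, cow 1 was higher on day 21 (by 2.37) and cows 2 to 4 were lower, here by 1.17 to 1.38 in size, which left a change of -0.37 (SE 0.607). UBE2D2 had 3 cows higher and cow 1 lower, and UBE2D4 had 3 cows higher and cow 2 lower.

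UBE2W, which can attach ubiquitin to the first residue of a protein, had the lowest change of the class. It read -3.60, -3.27, -2.71 and -3.69 on day 7 and -4.45, -4.75, -3.24 and -4.01 on day 21, lower in 4 of 4 cows, with a change of -0.80 (SE 0.421, limma adjusted p = 0.600). UBE2F, an E2 of NEDD8, had a change of 0.55 (SE 0.386) and was higher in 3 of 4 cows. The variants without an active site, UBE2V1 and UBE2V2, had changes of -0.09 and -0.24. UBE2T, of the Fanconi anaemia pathway, was higher by 2.76 in cow 2 and lower in the other 3 cows. UBE2K and UBE2Q2 were higher in 4 of 4 cows, by at most 0.82.

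The ubiquitin-specific proteases held both the highest and the lowest change of all members. Of the 11 tested USP genes 9 had a higher and 2 a lower mean on day 21, with a median of 0.32. Within cows 1 to 4 the USP median was 0.39, 0.07, 0.13 and 0.49, and over the settings tried it ran from 0.24 without the day 7 array of cow 4 to 0.49 without its day 21 array and 0.52 with slide as a fixed block. USP9X, a large deubiquitinase known to stabilise the survival protein MCL1 among others, read 1.20, 0.60, 0.61 and 0.45 on day 7 and -0.33, -0.84, -0.08 and -0.36 on day 21. Every day 21 value lay below every day 7 value, and cows differed by -0.69 to -1.54. The log2 change was -1.12, a fold of 0.46 (SE 0.343, unadjusted p = 0.00809, limma adjusted p = 0.419). With the cow as a block the SE was 0.274 and the limma adjusted p 0.159.

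USP11, a nuclear deubiquitinase linked to DNA repair, read 1.97, 2.23, 2.03 and 2.62 on day 7 and 3.17, 4.00, 2.68 and 3.11 on day 21. The groups did not overlap, by a narrow margin, and the change was 1.03 (SE 0.378, unadjusted p = 0.0206, limma adjusted p = 0.497). USP37, which acts on cyclin A and other cell cycle proteins, read -5.64, -5.61, -6.08 and -6.62, then -5.34, -4.27, -5.08 and -4.86. These are dim values: the probe was well above background on 2 of the 4 day 7 arrays, and its lowest reading, in cow 4, is the scanner's surrogate for a signal not told apart from background. Its change of 1.10 (SE 0.387, limma adjusted p = 0.483) therefore rests in part on values at the limit of measurement.

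USP18, the protease that takes the ubiquitin-like protein ISG15 off its targets and dampens interferon signalling, had the highest estimate. It read -1.97, 0.21, -0.13 and -0.51 on day 7 and -0.28, -0.11, 1.80 and 1.52 on day 21. Cows 1, 3 and 4 were higher by 1.69, 1.93 and 2.03 and cow 2 was lower by 0.32, so the groups overlapped. The log2 change was 1.33, a fold of 2.51 (SE 0.622, unadjusted p = 0.0570, limma adjusted p = 0.550). ISG15 itself, no member, was higher in 4 of 4 cows, by 1.04, 2.51, 4.16 and 3.97. Its groups overlapped: cow 1 read 2.83 on day 21, against 2.86 to 4.34 in cows 2 to 4 on day 7. UBA7, the activating enzyme of ISG15, followed the pattern of USP18 with 0.58, -0.28, 1.14 and 1.38.

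USP14, which sits on the regulatory particle and trims ubiquitin chains there, read -0.79, -1.79, -1.64 and -1.38 on day 7 and -0.62, -0.53, -1.32 and -0.69 on day 21. It was higher in 4 of 4 cows with a change of 0.61 (SE 0.366, limma adjusted p = 0.640). USP50 was lower in 4 of 4 cows, with a change of -0.65 (SE 0.370), and USP15 higher in 4 of 4, by 0.07 to 0.68. The USP15 values were dim, at -5.63 to -4.22, and only 2 of the 4 day 7 arrays were well above background. USP21 was higher by 2.00 and 2.04 in cows 1 and 2 and differed by 0.11 and -0.33 in cows 3 and 4. USP6NL, which the naming rule brings in although it is a regulator of Rab GTPases and no deubiquitinase, had a change of 0.0016 (SE 0.588).

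**Figure D4:**
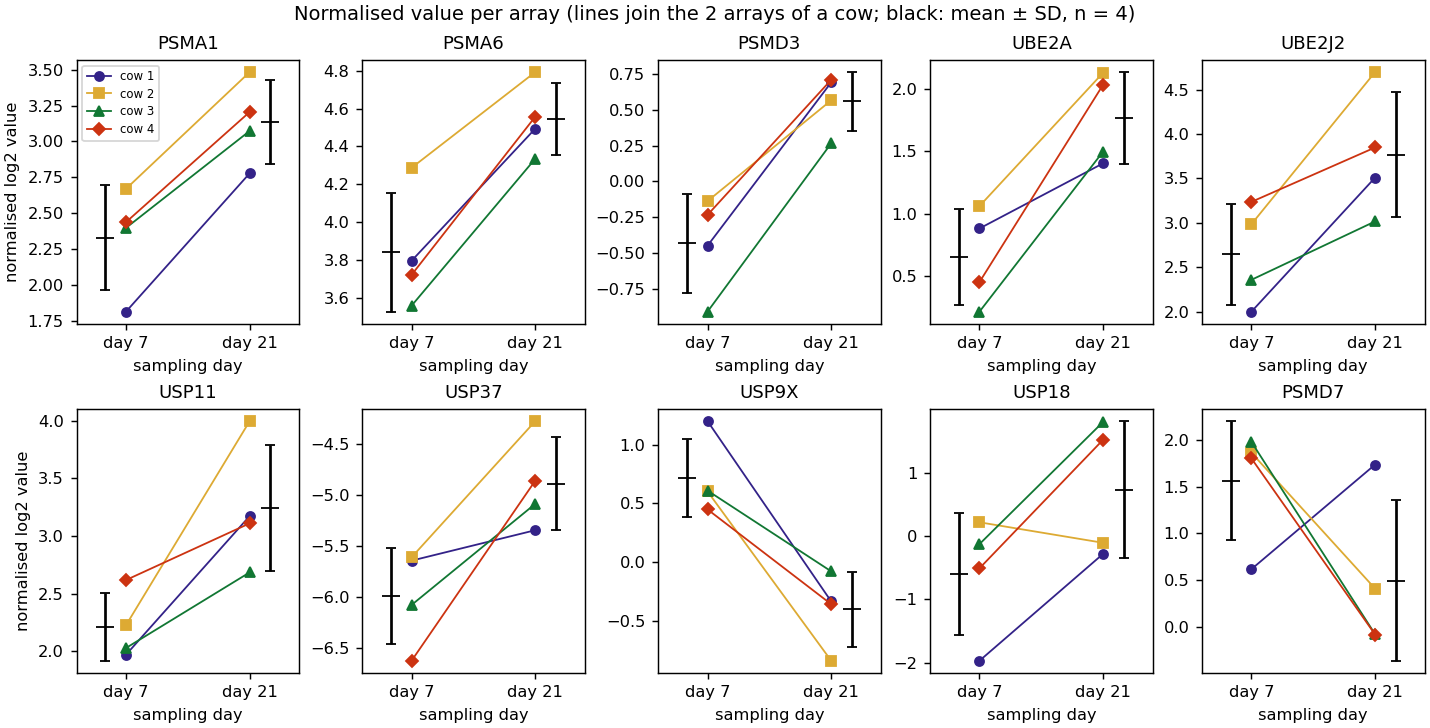
Normalised log2 value (vertical axis, own scale in each panel) of 10 members on day 7 and day 21, with lines joining the 2 arrays of a cow and black marks giving the mean ± SD of 4 arrays. The groups are apart in PSMA1, PSMA6, PSMD3, UBE2A, USP11, USP37 and USP9X, while cow 2 in USP18 and cow 1 in PSMD7 go against the other cows.

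Other genes of the pathway were read from lists that hold no member apart from USP18. Among ubiquitin genes and E1 enzymes, 7 of 8 tested genes had a higher mean on day 21 (median 0.49, and 0.15, 1.03, 0.34 and 0.32 in cows 1 to 4), and 1 had an unadjusted p under 0.05: UFM1, a ubiquitin-like modifier, at 1.03 (SE 0.342). UBB, a polyubiquitin gene, was at 0.81 (SE 0.425), with cow 1 lower and the other cows higher. Of the proteasome's assembly factors, activators and adaptors 5 of 8 were higher (median 0.06, and -0.06, -0.30, 0.20 and 0.19 in cows 1 to 4). NFE2L2, a stress-response transcription factor, was at -2.26 (SE 1.01). Cow 2 differed most in NFE2L2, by -5.27, and the mean difference of the other 3 cows was -1.25. The day 21 reading of cow 2 was dim, at -6.03, and NFE2L2 was well above background on 3 of 4 day 21 arrays. In the immunoproteasome list, which holds the activator subunits PSME1 and PSME2 too, 3 of 5 were higher (median 0.07).

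Of cullin RING ligase genes 12 of 16 were higher (median 0.40), although the median within cow 1 was -0.61, against 0.49, 0.23 and 0.38 in cows 2 to 4. Of these genes 2 were at an unadjusted p under 0.05, FBXW2 at 1.98 (SE 0.454) and CUL2 at 1.12 (SE 0.421). Other E3 ligases were split 10 higher to 9 lower, and XIAP, an inhibitor of apoptosis, was at -1.40 (SE 0.346) with 4 of 4 cows lower. Among other deubiquitinases 9 of 10 were higher (median 0.64), with none at an unadjusted p under 0.05, and the median was -0.24 within cow 1 and 1.12, 0.51 and 0.68 within cows 2 to 4. No gene of these lists was called at an adjusted p under 0.05 by limma.

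Markers of cell types differed between the days too, and their part in the members' values was not tested. Of 15 tested neutrophil markers 13 had a lower mean on day 21 (median -0.38), against 2187 of all 5029 tested genes. The fall was largest in cow 1, where the median was -1.64 against -0.55, -0.03 and -0.06 in cows 2 to 4. CXCR1, MMP9 and FCGR3A are among the 13, although each was higher in 3 of 4 cows. CXCR1 differed by -8.44 in cow 1 and by 1.43, 1.42 and 1.53 in cows 2 to 4. Of 8 monocyte and macrophage markers 7 had a higher mean (median 0.69), and their mean level ran from -0.57 to 0.17 on day 7 and from 0.22 to 0.94 on day 21. CD14 was at 1.60 (SE 0.454). C1QA and CAMP were well above background on 4 of 8 arrays each, and every other marker of these 2 lists on at least 6.

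Cell cycle genes had a higher mean in 14 of 14 cases (median 0.85, and 0.34, 1.12, 0.57 and 1.28 in cows 1 to 4), with CCNB1 at 1.07 (SE 0.325). B and plasma cell markers were higher in 4 of 5 (median 0.52), NK cell markers in 6 of 7 (median 0.30) and T cell markers in 3 of 7 (median -0.63). Eosinophil and basophil markers were higher in 1 of 3, platelet markers in 2 of 3 and erythroid markers in 2 of 3. The platelet markers differed widely. P2RY12 was at -2.45 (SE 0.450) with 4 of 4 cows lower, and ITGA2B at 0.10 (SE 0.524). ITGB3 was at 0.72 (SE 0.551), with 1 of its day 7 arrays well above background. GAPDH and ACTB, often used for scaling, had changes of 0.18 (SE 0.384) and -0.17 (SE 0.420), but both were lower on day 21 in cow 1, by 1.00 and 1.37. In the same cow the class median was 0.70 for PSMA, 0.44 for PSMB, 0.57 for UBE2 and 0.39 for USP, and -0.32 for PSMC and -0.49 for PSMD.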

How the data were processed

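The deposited scanner tables give spot intensity. They come from Agilent Feature Extraction 9.5, per the submitters' processing notes, and per the file headers their processed signal is background-subtracted and spatially detrended, with a surrogate for spots not told apart from background. The authors' series table holds log2 values. Compared with the scanner signal, every column proved to be its log2 less a constant for the array (residual up to 0.00485, constant within 0.0162 of the 75th percentile), with column medians of -3.53 to -3.29. Scale and direction are therefore known, and the reason for the small offset is not. The table served as an alternative.

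The processed signal was put on the log2 scale and the array's 75th percentile was subtracted. Left out were 536 control spots of 15744 and outlier spots, 0 to 12 on 7 arrays but 129 for cow 2 on day 21. No spot was saturated. Names came from bovine RefSeq (ARS-UCD2.0, symbols only) for 7135 of 15208 probes: 2514 through an accession, 2013 through a gene identifier, 1589 from the gene name column and 1019 from the description. The brightest tested probe stood for a gene. The groups were compared in R 4.3.3 with limma 3.58.1, unblocked, with Benjamini-Hochberg adjustment over 10459 tested probes. The steps were tested on simulated data.

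Both groups hold the same animals, by the source names, so replicate numbers pair the samples. Deviations from the group means correlated at 0.172 to 0.752 within a cow and at -0.474 to 0.302 between cows. Cow 1 (both days) and cow 2 (day 7) shared slide 1, cow 2 (day 21) was on slide 2, and cows 3 and 4 were on slides 3 and 4. The lowest within-cow correlation, 0.172, was that of cow 2, whose arrays were on different slides. The highest between cows, 0.302, joined cow 2 on day 7 and cow 1 on day 21, both on slide 1. Cow and slide thus cannot be told apart in these correlations.

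Named members were those with an unadjusted p under 0.05, the 3 highest and 3 lowest changes of each class, the catalytic PSMB genes, the ISG15 enzymes, PSMD14 and USP14. Others were named after their values were seen. Members and lists were chosen with earlier results of these data known. The alternatives were another background correction, other scalings, filters, the series table, slide or cow as a block, array weights, the mean over probes, outlier spots kept, and each array or cow left out. A member not reported here by name is included in the counts and medians and is not drawn. Promoter and protein sequences were not used here. No coordinates are printed, since no source used here names the build of the array design.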

Additional observations from a re-analysis of the deposited data

Results flagged for a closer look

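In 5 of the 70 groups of 4 values examined (35 named members on each day), the extreme value lay so far from the others that its gap, divided by the group's range, passed Dixon's critical value for 4 samples, which chance alone passes in about 5% of groups. PSMC5 in cow 1 on day 7 read 4.64, against 3.67 to 3.75 in the other cows. PSMD7 in cow 1 on day 7 read 0.62, against 1.80 to 1.98. UBE2D1 in cow 1 on day 7 read -3.93, against -1.43 to -1.30. PSMA7 in cow 1 on day 21 read 0.44, against 1.64 to 1.72. PSMD14 in cow 3 on day 7 read 1.73, against 2.12 in each of the others. Of these 5 values, 4 belong to cow 1, whose arrays got the lowest array quality weights. Why was not tested.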

How the results depend on the processing

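No alternative except array quality weights called a member at an adjusted p under 0.05. With these weights 20 members were higher and 4 lower at an unadjusted p under 0.05, against 6 and 1. Of all tested genes 18.25% were higher and 14.52% lower with the weights, against 5.31% and 3.70% without. At an adjusted p under 0.05, 10 members were called. The named members that then passed had changes of 0.76 (PSMA1), 1.00 (PSMA7), 0.93 (PSMB4), 1.03 (PSMD3), -1.78 (PSMD7), 1.45 (UBE2A), 1.81 (USP18), 1.44 (USP37) and -0.90 (USP9X). With the cow as a replicate block (paired analysis) 13 members were higher and 3 lower at an unadjusted p under 0.05. The shares of all tested genes were 10.4% and 7.52%. With slide as a random block 11 were higher and 2 lower, against 8.31% and 5.61% of all genes. The count lower was 2 under normexp background correction, under quantile normalization and with probes well above background on all 8 arrays. In that order 3.4%, 4.10% and 4.21% of all genes were lower. Leaving out arrays or cows gave 1 to 11 members higher and 1 to 3 lower. Over the same fits 1.73% to 9.62% of all genes were higher and 1.41% to 7.85% lower.

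The PSMB median was 0.36 under quantile normalization, 0.030 with no filter on dim probes, 0.38 with slide blocked as a fixed term and 0.38 under array quality weights, and 0.37 to 0.51 when arrays or cows were left out. The PSMA median was then 0.39 to 0.74. For UBE2, slide as a fixed term brought the median to 0.093. Signs turned for changes near 0. PSMB5 was at 0.12 with slide as a fixed term and at 0.055 with array quality weights, PSMB6 at -0.032 under quantile normalization and UBE2V2 at 0.038 with slide as a fixed term. USP6NL was at -0.023 under median scaling, -0.014 in the series table and -0.0098 with outlier spots kept. When arrays or cows were left out, PSMA3 ran from -0.13 to 0.43, PSMB5 from -0.37 to 0.045, PSMB6 from -0.20 to 0.25, PSMC5 from -0.074 to 0.35, PSMC6 from -0.065 to 0.58 and USP6NL from -0.38 to 0.45. The cause was not tested in any of these. With no filter on dim probes the median of all genes was -0.06 in place of 0.09, while under the other scalings it stayed at 0.05 to 0.08. UBE2B, USP15, USP21, USP37 and USP6NL were not well above background on 1 or more arrays, and the day 7 values of USP37 and USP6NL in cow 4 are the scanner's surrogate.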
